A study of Mus musculus with 10 samples.

Results

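The genes described here are 37 genes of programmed cell death and of the p53 response, chosen by name and found by symbol in a table of 55401 genes of mouse (Mus musculus) limb ectoderm. All 37 passed the filter on low counts and stood among the 19126 genes tested. RNA sequencing was done on the ectoderm of forelimb buds at E9.75 (days of embryonic development), the epithelial sheet that covers the bud and forms the apical ectodermal ridge at its rim. The DKO group held 3 libraries from embryos labelled as knocked out for both SP8 and SP6, zinc finger transcription factors of the SP family, and the WT group held 3 libraries from wild-type littermates. The labels used here give neither the alleles nor the strain, and they do not say which samples shared a litter. Each sample held the ectoderm of about 2 forelimb buds, freed with trypsin on ice and peeled with forceps. Each library is called by its group and its number in the table, and values are given for DKO 17, DKO 40 and DKO 41 and for WT 32, WT 53 and WT 56, in that order.

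In the intrinsic pathway of apoptosis, BH3-only proteins such as PUMA and NOXA bind the anti-apoptotic proteins BCL2, BCL-XL and MCL1 and free the effectors BAX and BAK to open the outer mitochondrial membrane. Cytochrome c then leaves the mitochondria and assembles APAF1 and the initiator caspase encoded by Casp9 into the apoptosome, while IAP proteins hold caspases in check. The transcription factor p53 is held low by the ubiquitin ligase MDM2, and when it is stabilised by stress it induces genes of cell cycle arrest, metabolism and death. Programmed cell death is known in the apical ectodermal ridge and in the tissue between the digits of the vertebrate limb.

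The library totals ranged from 75996667 to 86142321 counts in DKO and from 64432348 to 87040786 counts in WT. Among the 37 genes the lowest count in any library was 19, of Hrk in DKO 40, so the values of these genes rest on no count of 0. As a check of the labels, Sp8 had 5.86, 2.38 and 2.80 CPM in the DKO libraries, against 34.1, 43.2 and 31.3 CPM in the WT libraries (CPM: reads scaled to a common library size, by TMM). Sp6 had 133, 13.9 and 76.9 CPM in the DKO libraries, against 228, 312 and 319.9 CPM in the WT libraries, lower in each DKO library but not called (log2 fold change -1.94, SE 0.682; edgeR adjusted p = 0.207). Its log2 fold change ran from -2.64 to -1.45 with 1 library left out, and it was called without DKO 40 (edgeR adjusted p = 0.0487). Exons of Sp6 overlap those of Gm11532 on the opposite strand by 3329 of 3841 bases. The chemistry does not mark strand, so most of the Sp6 exon sequence cannot be assigned to Sp6 alone. Fgf8, a growth factor made in the ridge, had 13.5, 0.261 and 0.930 CPM in the DKO libraries. In the WT libraries Fgf8 had 1181, 1209 and 1387 CPM. Of the DKO libraries, DKO 17 had the highest level counted for Sp6 and for Fgf8. Ectoderm markers were present in each library: the summed level of 9 markers was 1608 to 2056 CPM in DKO and 2397 to 2780 CPM in WT, with Krt8 called higher and Epcam and Cdh1 called lower in DKO. The summed level of 10 ridge markers was 258 to 419.8 CPM in DKO and 1802 to 2217 CPM in WT. With whole tissue in each library, fewer cells of a kind and less RNA per cell cannot be told apart.

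Of the 37 genes, 3 rose and 3 fell in DKO at an adjusted p under 0.05 (16.2%), against 4.51% of all genes tested, or 1.7% higher and 2.81% lower. The 37 were chosen with earlier results of these data known, so these shares are a description and no set test was run. The rises were those of Bmf and Bbc3, which encode BH3-only proteins, and of Bak1, which encodes the pore-forming effector BAK. The falls were those of Sesn1 and Plk2, known p53 targets, and of Pmaip1, which encodes the BH3-only protein NOXA. The other 31 were not called. In 10 of the 37 genes (27%) the DKO and the WT libraries did not overlap, 4 higher and 6 lower in DKO, against 21.9% of all genes tested. The log2 fold change lay within a 1.5-fold change for 27 of the 37 (73%), as it did for 74.3% of all genes tested. Its median over the 37 was -0.12, and 0.03 over all genes tested. An unadjusted p under 0.05 by edgeR was found for 12 of the 37, and for 3448 of all 19126 genes tested.

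**Figure D1:**
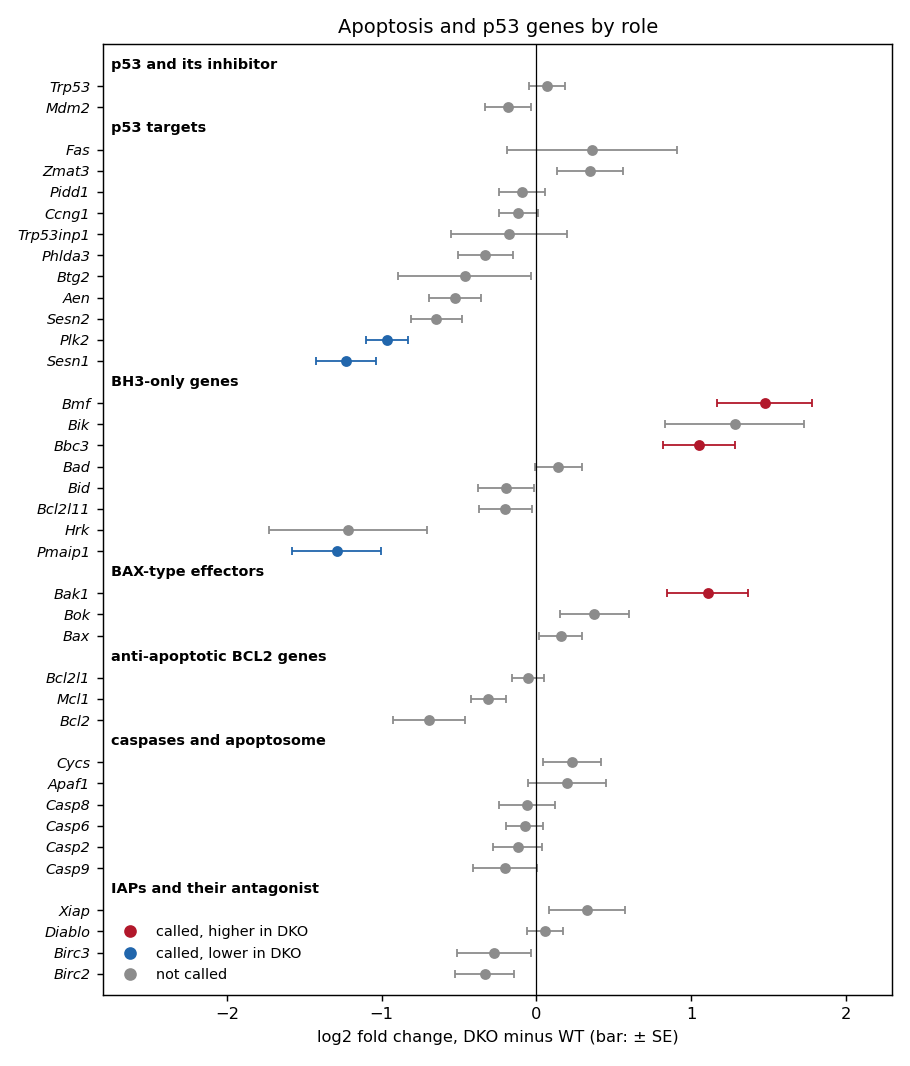
Log2 fold change (DKO minus WT, horizontal axis) of each of the 37 genes, grouped by role, with bars of ± SE from the edgeR fit on 3 libraries a group. Red points were called higher in DKO, blue points lower, and grey points were not called; the called genes sit between -1.29 (Pmaip1) and 1.47 (Bmf), and the caspase and IAP genes sit near 0.

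Bases before the RefSeq start of called genes are shown because SP factors are known to bind GC boxes and p53 its own response element. Of the 37 genes, 33 had an entry in the RefSeq promoter table of GRCm38.p6, among them 5 of the 6 called ones; Pmaip1 had none. Each window is the 250 bases before the most upstream RefSeq start. GENCODE M21 starts some of these genes farther out: all 250 bases of the Bbc3, Sesn1 and Bak1 windows lie within the gene span given for them below, in the 5′ UTR of a GENCODE transcript for Sesn1 and Bak1, whose sequences are not shown, and outside annotated UTRs for Bbc3. Capitals mark GGGCGG on either strand (read as CCGCCC on the other, overlapping matches counted) and, for Cdkn1a, a p53 target called lower below, the p53 decamer consensus, which is its own reverse complement. The coordinates are chr2:118549687-118549936, minus strand for Bmf, chr7:16309333-16309582, plus strand for Bbc3 and chr17:27028628-27028877, minus strand for Bak1. They are chr10:41810324-41810573, plus strand for Sesn1, chr13:110394794-110395043, plus strand for Plk2 and chr17:29090729-29090978, plus strand for Cdkn1a.
Bmf: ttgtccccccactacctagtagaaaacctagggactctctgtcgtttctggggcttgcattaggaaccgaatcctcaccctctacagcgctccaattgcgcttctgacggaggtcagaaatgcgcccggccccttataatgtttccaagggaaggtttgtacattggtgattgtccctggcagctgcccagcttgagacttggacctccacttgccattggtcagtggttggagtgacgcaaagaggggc
Bbc3: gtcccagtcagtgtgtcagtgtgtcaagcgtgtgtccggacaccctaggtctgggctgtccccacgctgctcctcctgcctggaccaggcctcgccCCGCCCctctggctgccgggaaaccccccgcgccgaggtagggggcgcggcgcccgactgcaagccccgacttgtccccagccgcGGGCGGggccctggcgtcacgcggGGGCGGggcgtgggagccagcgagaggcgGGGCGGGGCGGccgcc
Plk2: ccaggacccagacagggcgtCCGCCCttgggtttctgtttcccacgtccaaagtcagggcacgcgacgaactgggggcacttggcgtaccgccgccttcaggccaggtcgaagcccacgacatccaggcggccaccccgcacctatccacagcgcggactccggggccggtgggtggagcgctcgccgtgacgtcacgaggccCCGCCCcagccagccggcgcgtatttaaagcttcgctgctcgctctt
Cdkn1a: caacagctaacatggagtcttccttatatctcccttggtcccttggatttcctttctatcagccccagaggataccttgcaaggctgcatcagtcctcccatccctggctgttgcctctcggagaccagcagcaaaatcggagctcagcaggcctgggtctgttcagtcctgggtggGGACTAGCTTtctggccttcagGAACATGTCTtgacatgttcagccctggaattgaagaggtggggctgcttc

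GGGCGG was found 5 times in the window of Bbc3, 4 times in that of Sesn1, 2 times in that of Plk2 and not in those of Bmf and Bak1, so windows of genes called in either direction held it. Of the 33 genes, 23 had GGGCGG in this window (69.7%), against 33% of all 27025 genes in the table. Those 27025 genes were not limited to genes expressed in this tissue, while all 33 passed the filter on low counts. No share over the genes tested was computed, so the sets are unlike in more than their roles. The p53 decamer was found in the windows of Trp53, Mdm2, Ccng1 and Bax (4 of 33, 12.1%, against 7.16% of all genes), none of them called, and 2 times in that of Cdkn1a. These matches describe the letters of the windows and no binding was measured here.

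Neither the gene of p53 nor that of its inhibitor was called. Trp53, which encodes p53, had 403, 387 and 432 CPM in the DKO libraries, against 379, 442 and 346 CPM in the WT libraries. The groups overlapped, and the gene was not called (log2 fold change 0.07, SE 0.117; edgeR adjusted p = 0.825). Mdm2, a ubiquitin ligase gene that p53 itself induces, had 45.3, 40.4 and 55.1 CPM in the DKO libraries, against 52.5, 51.8 and 55.7 CPM in the WT libraries and was not called (log2 fold change -0.18, SE 0.147; edgeR adjusted p = 0.585). By DESeq2, as by edgeR, 0 of these 2 genes were called, and 0 had an unadjusted p under 0.05. RNA levels do not show the amount of p53 protein, which is set largely after translation.

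Of 11 p53 targets among the 37 genes, 2 fell and 0 rose by edgeR, which called 4.51% of all genes tested. DESeq2 called 4 of the 11 lower (Sesn2 and Aen besides) and 0 higher, and it called 1696 of all 19126 genes tested. Genes induced by p53 that are counted with other roles include Mdm2, Bbc3 and Pmaip1. Bbc3 rose, Pmaip1 fell and Mdm2 was not called, and these are not a full list of such genes. Sesn1 (ENSMUSG00000038332.13, GRCm38 chromosome 10, 41809935 to 41908424) encodes a sestrin, a stress-induced inhibitor of mTORC1 signalling. It had 17.7, 22.2 and 26.7 CPM in the DKO libraries, against 47.8, 62.1 and 47.1 CPM in the WT libraries. Each DKO library lay below each WT library, DKO 17 lowest, and the mean was 2.36-fold lower in DKO (log2 fold change -1.23, SE 0.192; edgeR adjusted p = 0.00947). Plk2 (ENSMUSG00000021701.8, GRCm38 chromosome 13, 110395046 to 110400844), a polo-like kinase gene induced by p53 and by serum, had 98.0, 86.8 and 111 CPM in the DKO libraries, against 185, 176 and 217 CPM in the WT libraries. It was 1.95-fold lower in DKO, again with no overlap (log2 fold change -0.97, SE 0.135; edgeR adjusted p = 0.00596).

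Sesn2, the second sestrin gene, had 41.8, 42.6 and 48.9 CPM in the DKO libraries, against 55.02, 82.3 and 72.0 CPM in the WT libraries. Its libraries did not overlap, but it missed the threshold (log2 fold change -0.65, SE 0.168; edgeR adjusted p = 0.0689). Aen, which encodes a nuclease that p53 induces during apoptosis, had 110.1, 73.7 and 77.1 CPM in the DKO libraries, against 112, 132 and 132 CPM in the WT libraries, with DKO 17 close to WT 32, and was not called (log2 fold change -0.53, SE 0.169; edgeR adjusted p = 0.130). Without DKO 17 Aen was called lower, at -0.73 (edgeR adjusted p = 0.0269). The groups overlapped in the other 7 targets. Phlda3, an inhibitor of AKT signalling, averaged 163 ± 33.6 CPM in DKO and 204 ± 34.4 CPM in WT (SD, n = 3 each; edgeR adjusted p = 0.374). Ccng1, which encodes cyclin G, and Pidd1, a scaffold of caspase activation, had log2 fold changes of -0.12 and -0.09, and Zmat3, an RNA-binding zinc finger gene, 0.34. Trp53inp1 and the antiproliferative gene Btg2 varied more within DKO than between the groups. Trp53inp1 had 11.6, 18.8 and 39.3 CPM in the DKO libraries, against 23.7, 24.6 and 30.9 CPM in the WT libraries, and Btg2 had 11.3, 13.8 and 38.7 CPM in the DKO libraries, against 33.5, 19.8 and 34.7 CPM in the WT libraries. For both of them DKO 17 was the lowest of the 6 libraries and DKO 41 the highest. Without DKO 41 the log2 fold change of Btg2 was -1.25 and that of Trp53inp1 -0.81, and neither was called. The death receptor gene Fas was low, at 1.34 ± 0.431 CPM in DKO and 1.01 ± 0.795 CPM in WT (SD, n = 3 each), and its log2 fold change ran from 0.02 without WT 32 to 1.28 without WT 56.

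The BH3-only genes moved both ways: of 8, Bmf and Bbc3 rose and Pmaip1 fell, by edgeR as set here and by DESeq2. Over all genes tested, edgeR called 4.51%. With the default setting of this edgeR version (legacy=TRUE), none of these 3 was called (edgeR adjusted p = 0.0539 for Bmf, 0.0677 for Bbc3 and 0.0775 for Pmaip1). They were not called with no filter on low counts either. Bmf (ENSMUSG00000040093.16, GRCm38 chromosome 2, 118528757 to 118549687) encodes a BH3-only protein that is bound to the cytoskeleton and is known from the death of detached epithelial cells. It had 20.9, 40.2 and 50.7 CPM in the DKO libraries, against 14.9, 11.4 and 13.7 CPM in the WT libraries. The WT libraries lay close together and the DKO libraries were spread, DKO 17 nearest to WT, and the mean was 2.79-fold higher in DKO (log2 fold change 1.47, SE 0.307; edgeR adjusted p = 0.0308). Bbc3 (ENSMUSG00000002083.13, GRCm38 chromosome 7, 16308393 to 16318205) encodes PUMA, which binds the whole anti-apoptotic side of the family and is a p53 target. It had 14.8, 17.2 and 21.6 CPM in the DKO libraries, against 8.23, 10.8 and 7.23 CPM in the WT libraries, 2.04-fold higher in DKO and with no overlap (log2 fold change 1.05, SE 0.234; edgeR adjusted p = 0.0394). Pmaip1 (ENSMUSG00000024521.8, GRCm38 chromosome 18, 66458533 to 66465565) encodes NOXA, which binds mainly MCL1 and is also a p53 target. It had 5.02, 4.17 and 8.10 CPM in the DKO libraries, against 16.7, 10.9 and 14.7 CPM in the WT libraries, 2.45-fold lower in DKO and again with no overlap (log2 fold change -1.29, SE 0.288; edgeR adjusted p = 0.0396). Bbc3 and Pmaip1, both known as p53 targets, thus passed the test as set here in opposite directions.

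**Figure D2:**
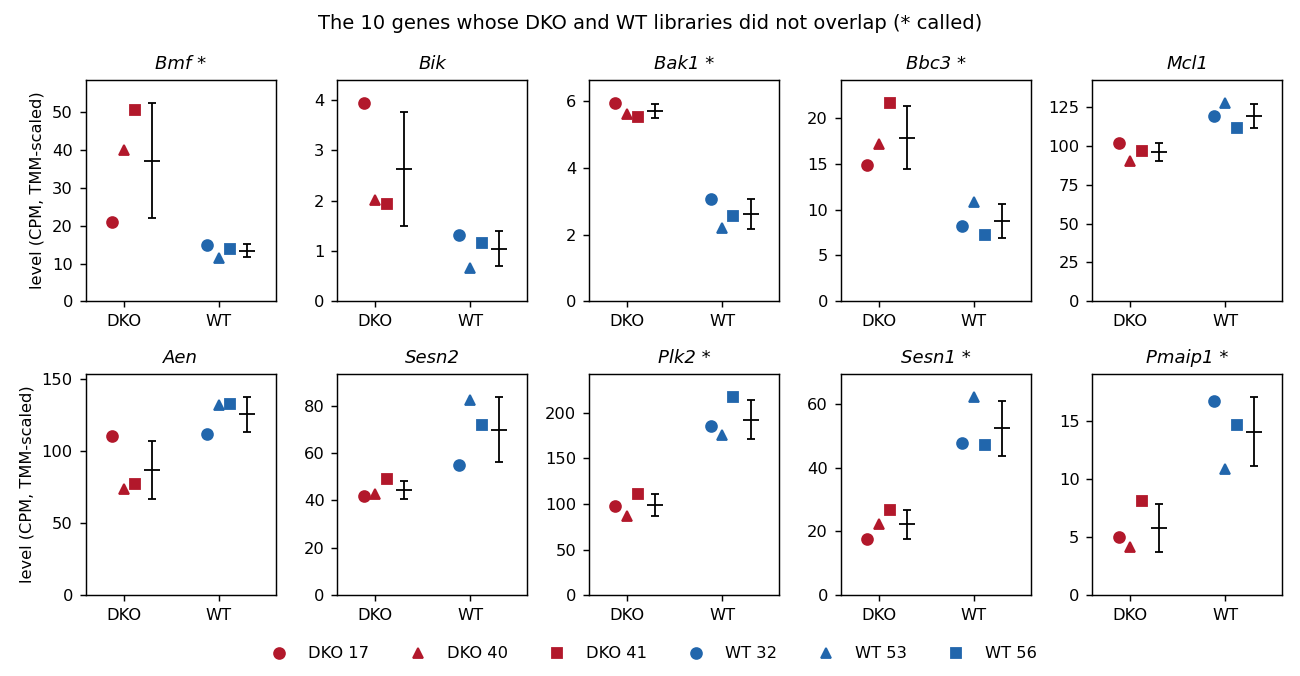
Level of the 10 genes whose libraries did not overlap between the groups, in CPM scaled by TMM on linear axes from 0, with 1 point per library (DKO left, WT right) and the mean ± SD of 3 libraries beside them. Asterisks mark the 6 called genes; Bmf in DKO runs from 20.9 to 50.7 CPM, all above the highest WT library at 14.9 CPM.

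The other 5 BH3-only genes were not called. Bik, whose protein acts at the endoplasmic reticulum, had 3.93, 2.01 and 1.94 CPM in the DKO libraries, against 1.32, 0.663 and 1.16 CPM in the WT libraries. These did not overlap, and the value of DKO 17 stood above the rest (log2 fold change 1.28, SE 0.447; edgeR adjusted p = 0.165). Hrk, best known from neurons, had 1.67, 0.248 and 0.784 CPM in the DKO libraries, against 2.10, 1.64 and 2.54 CPM in the WT libraries (log2 fold change -1.22, SE 0.511; edgeR adjusted p = 0.250). Its log2 fold change was -1.99 without DKO 17 and -0.81 without DKO 40, and it was called in neither. Bcl2l11, which encodes BIM, averaged 33.5 ± 5.68 CPM in DKO and 38.5 ± 4.43 CPM in WT (SD, n = 3 each; log2 fold change -0.20, SE 0.169; edgeR adjusted p = 0.608). Bid, whose product is cut by the caspase of the death receptors, and Bad, whose product is inactivated by phosphorylation, had log2 fold changes of -0.20 and 0.14.

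Divided by exon length, which allows a comparison between genes, the summed level of the 8 BH3-only genes was 42.0, 45.3 and 56.5 CPM per kb in the DKO libraries and 42.1, 42.5 and 40.4 CPM per kb in the WT libraries. The sums overlapped, and that of DKO 41 was the highest. Bmf made up 14.5 ± 4.33% of the sum in DKO and 6.11 ± 0.854% in WT, and Bbc3 17.5 ± 0.759% in DKO and 9.87 ± 1.87% in WT (SD, n = 3 each). The share of Pmaip1 was 4.33 ± 0.943% in DKO and 12.4 ± 2.69% in WT. Bad held the largest share of the 8 in each library, 34.5 ± 0.213% in DKO and 35.99 ± 1.39% in WT. These shares are a description of transcript makeup and were not tested apart from the genes themselves.

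**Figure D3:**
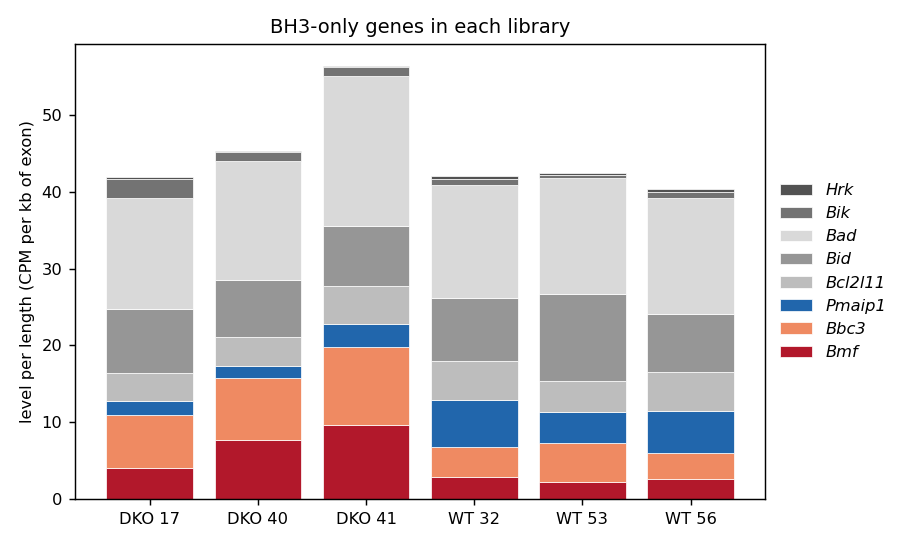
Level per length of the 8 BH3-only genes stacked for each library (CPM per kb of exon; 3 DKO libraries left, 3 WT libraries right). The red and orange segments of Bmf and Bbc3 are taller in each DKO library than in each WT library and the blue segment of Pmaip1 is shorter, while the total runs from 42.0 to 56.5 in DKO and from 40.4 to 42.5 in WT.

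Of the 3 effector genes, Bak1 rose and 0 fell. Bak1 (ENSMUSG00000057789.14, GRCm38 chromosome 17, 27019810 to 27029009) had 5.93, 5.61 and 5.54 CPM in the DKO libraries, against 3.08, 2.19 and 2.55 CPM in the WT libraries. The libraries of each group lay close together and did not overlap, and the mean was 2.18-fold higher in DKO (log2 fold change 1.11, SE 0.262; edgeR adjusted p = 0.0491). Its exons overlap those of Ggnbp1 on the opposite strand by 437 bases of 2407, and the chemistry does not mark strand, so reads there cannot be told apart; Ggnbp1 itself had 1.84, 1.07 and 0.762 CPM in the DKO libraries, against 0.289, 0.300 and 0.515 CPM in the WT libraries. Bax was far more abundant, at 298, 279 and 220.3 CPM in the DKO libraries, against 227, 268 and 221 CPM in the WT libraries, and was not called (log2 fold change 0.16, SE 0.140; edgeR adjusted p = 0.631). Of the summed effector level per length, Bax made up 91.2 ± 1.08% in DKO and 92.6 ± 0.830% in WT, and Bak1 1.30 ± 0.188% in DKO and 0.672 ± 0.158% in WT (SD, n = 3 each). Bok, the third effector gene, had a log2 fold change of 0.37 (edgeR adjusted p = 0.429).

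None of the 3 anti-apoptotic genes was called by edgeR, and DESeq2 called Mcl1 lower. By edgeR 2 had an unadjusted p under 0.05, as did 3448 of all 19126 genes tested. Mcl1, which encodes the short-lived partner of NOXA, had 102, 90.0 and 96.7 CPM in the DKO libraries, against 119, 127 and 111 CPM in the WT libraries. Each DKO library lay below each WT library, by a small amount (log2 fold change -0.31, SE 0.113; edgeR adjusted p = 0.183; DESeq2 adjusted p = 0.0495). Bcl2 had 8.80, 8.49 and 11.5 CPM in the DKO libraries, against 17.3, 11.5 and 17.6 CPM in the WT libraries, with DKO 41 and WT 53 side by side (log2 fold change -0.69, SE 0.235; edgeR adjusted p = 0.151). Bcl2l1, which encodes BCL-XL, varied least of the 3, at 110.1 ± 4.005 CPM in DKO and 114 ± 0.626 CPM in WT (SD, n = 3 each; log2 fold change -0.05, SE 0.103; edgeR adjusted p = 0.844). Summed per length, the 3 genes stood at 53.8, 51.3 and 54.4 CPM per kb in the DKO libraries and 61.5, 63.4 and 59.6 CPM per kb in the WT libraries, which do not overlap. Mcl1 made up 52.9 ± 2.14% of that sum in DKO and 56.7 ± 1.98% in WT.

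Downstream of the mitochondria, edgeR and DESeq2 called 0 of the 6 caspase and apoptosome genes. They also called 0 of the 4 genes of the IAPs and their antagonist. By edgeR 0 of these genes had an unadjusted p under 0.05, against 3448 of all 19126 genes tested. Over all genes tested edgeR called 4.51% and DESeq2 called 1696, so 0 called among so few genes is near those shares. Casp9, the initiator of the apoptosome, had 24.4, 34.4 and 44.0 CPM in the DKO libraries, against 39.9, 38.9 and 39.6 CPM in the WT libraries (log2 fold change -0.20, SE 0.205; edgeR adjusted p = 0.681). Its WT libraries lay close together while DKO 17 was low. Apaf1, its scaffold, had 19.1, 17.3 and 23.2 CPM in the DKO libraries, against 18.6, 10.9 and 21.9 CPM in the WT libraries (log2 fold change 0.20, SE 0.254; edgeR adjusted p = 0.757). Cycs, which encodes cytochrome c, averaged 349.6 ± 95.7 CPM in DKO and 298 ± 16.0 CPM in WT (SD, n = 3 each; edgeR adjusted p = 0.594); cytochrome c has many near-identical processed pseudogenes, so its counts are uncertain. Casp2, Casp6 and Casp8, the last of them the initiator of the death receptors, had log2 fold changes of -0.12, -0.08 and -0.06. Xiap, the IAP that inhibits caspases directly, had 10.3, 13.6 and 16.9 CPM in the DKO libraries, against 12.8, 8.86 and 10.7 CPM in the WT libraries (log2 fold change 0.33, SE 0.244; edgeR adjusted p = 0.552). Birc2 and Birc3, the cellular IAPs, had log2 fold changes of -0.33 and -0.27, and Diablo, the mitochondrial antagonist of the IAPs, 0.05.

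Ranked by level per length, the most abundant of the 37 genes were Bax (169 in DKO and 151 in WT, CPM per kb), Phlda3 (104 in DKO and 131 in WT), Trp53 (100.7 in DKO and 96.1 in WT), Cycs (103 in DKO and 87.6 in WT) and Plk2 (21.9 in DKO and 42.9 in WT). The order is that in WT, and in DKO Plk2 stood behind Diablo (30.2 in DKO and 29.1 in WT), Mcl1 (28.1 in DKO and 34.9 in WT), Bcl2l1 (24.0 in DKO and 24.9 in WT) and Casp6 (23.8 in DKO and 25.2 in WT). This order depends on the length used. By the longest transcript, Plk2 in DKO (35.2) stood behind Diablo (55.1) and Bcl2l1 (42.9) but ahead of Casp6 (34.0) and Mcl1 (28.1). The least abundant in both groups were Hrk (0.159 in DKO and 0.369 in WT, CPM per kb) and Fas (0.649 in DKO and 0.488 in WT), followed in WT by Bik (1.65 in DKO and 0.658 in WT). Among the called genes, Sesn1 was at 5.57 in DKO and 13.1 in WT per kb, Bmf was at 7.10 in DKO and 2.54 in WT, Bbc3 at 8.40 in DKO and 4.12 in WT, Pmaip1 at 2.11 in DKO and 5.17 in WT and Bak1 at 2.36 in DKO and 1.08 in WT. Some exon sequence of Bid (628 bases), Bad (524), Bax (192), Bcl2 (558), Casp9 (94) and Diablo (1326) also belongs to an annotated neighbour, so reads there may be shared.

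Further genes of these pathways were read from lists of known members. Over all 19126 genes tested, edgeR called 538 lower and 325 higher (4.51% together), and DESeq2 called 973 lower and 723 higher. The counts called in each further list stand beside these. Of 24 other p53 targets tested, 3 fell and 1 rose, and their median log2 fold change was -0.08. DESeq2 called 4 of them lower and 2 higher. Cdkn1a, the p53-induced inhibitor of the cell cycle whose window is shown above, had 92.5, 63.7 and 61.7 CPM in the DKO libraries, against 135, 172 and 178 CPM in the WT libraries, 2.22-fold lower in DKO and with no overlap (log2 fold change -1.15, SE 0.183; edgeR adjusted p = 0.0101). Perp, a p53 target that is also a desmosome gene of epithelia, averaged 273 ± 84.2 CPM in DKO and 534 ± 45.6 CPM in WT (SD, n = 3 each; log2 fold change -0.97, SE 0.195; edgeR adjusted p = 0.0273). The ephrin receptor gene Epha2 had 9.51, 5.71 and 4.998 CPM in the DKO libraries, against 16.2, 17.2 and 17.2 CPM in the WT libraries (log2 fold change -1.33, SE 0.254; edgeR adjusted p = 0.0223). The gene that rose was Ninj1, whose product ruptures the plasma membrane of dying cells, with 46.4, 49.9 and 65.0 CPM in the DKO libraries, against 23.5, 36.3 and 26.4 CPM in the WT libraries (log2 fold change 0.92, SE 0.203; edgeR adjusted p = 0.0381).

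Among 14 tested regulators and relatives of p53, Trp73, which encodes the p53 relative p73, fell 3.35-fold, with 2.27, 0.967 and 3.93 CPM in the DKO libraries, against 6.79, 7.39 and 9.81 CPM in the WT libraries (log2 fold change -1.71, SE 0.394; edgeR adjusted p = 0.0447), and 0 rose. Trp63, which encodes p63, the p53 relative that keeps the surface epithelium, had 176, 131 and 244 CPM in the DKO libraries, against 295, 271 and 346 CPM in the WT libraries; its libraries did not overlap, and it missed the threshold by edgeR (log2 fold change -0.72, SE 0.207; edgeR adjusted p = 0.0915), while DESeq2 called it lower. Mdm4, a further inhibitor of p53, had a log2 fold change of -0.10 (edgeR adjusted p = 0.835). By edgeR and by DESeq2, 0 were called among 8 death receptor genes, 7 other BCL2 family genes and 6 other IAP and mitochondrial genes. In lists this short, 0 called is near the share of all genes tested (4.51% by edgeR). By edgeR 0, 0 and 1 of them had an unadjusted p under 0.05, against 3448 of all 19126 genes tested. The last list includes Birc5, the survivin gene, at 189 ± 18.5 CPM in DKO and 171 ± 23.9 CPM in WT (SD, n = 3 each). Exons of Cdkn1a and Trp73 overlap those of transcripts on the opposite strand by 273 and 280 bases.

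Most of the calls did not hold when 1 library was left out, which also leaves a smaller group to test. Plk2 was the 1 of the 6 called members whose call held whichever single library was left out (adjusted p up to 0.0414), and Sesn1 lost it without DKO 40 (0.0571). Bbc3 lost its call without DKO 40, DKO 41, WT 32 or WT 56 (adjusted p up to 0.193), Pmaip1 without any but DKO 41 (up to 0.163), Bmf without any but DKO 17 (up to 0.131) and Bak1 without any 1 of the 6 (up to 0.216). Their directions held in each of these fits: the log2 fold change of Bmf ran from 1.17 to 1.76, that of Bak1 from 1.01 to 1.22, and that of Pmaip1 from -1.64 to -1.11. With the default setting of this edgeR version (legacy=TRUE), or with no filter on low counts, Sesn1 and Plk2 were the members called. Among the listed genes, the call of Cdkn1a was lost if DKO 40 or WT 56 was left out (adjusted p up to 0.0680), Ninj1 without DKO 40, DKO 41, WT 32 or WT 56 (0.181), Epha2 without DKO 40 or any 1 WT library (0.113), and Perp and Trp73 without any but DKO 41 (0.110 and 0.193). The log2 fold change of Trp73 was -2.30 without DKO 41.

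**Figure D4:**
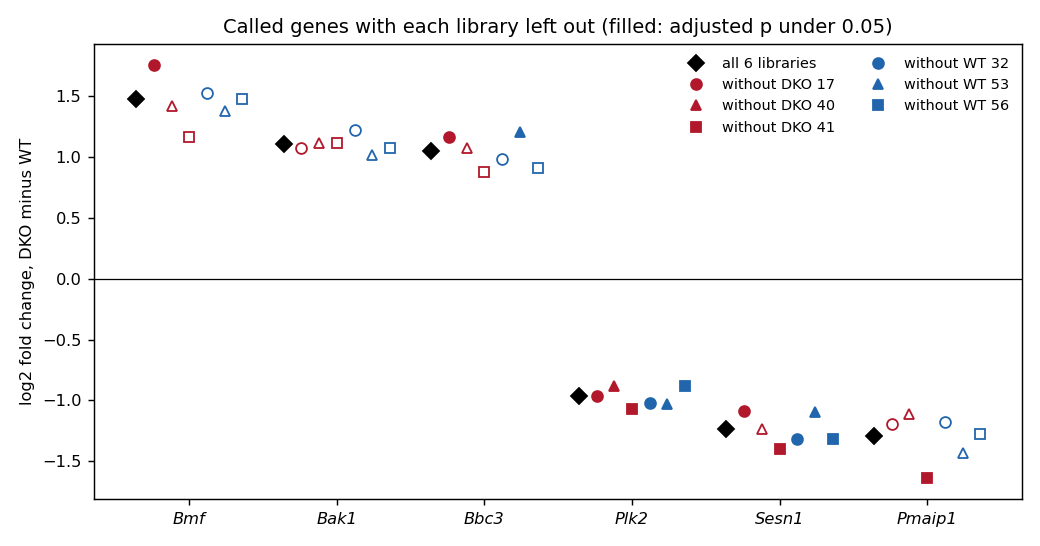
Log2 fold change (DKO minus WT, vertical axis) of the 6 called genes with all 6 libraries (black diamonds) and with each library left out in turn (red, a DKO library left out; blue, a WT library). Filled marks have an adjusted p under 0.05 and open marks do not; no mark crosses 0, and Plk2 is filled throughout.

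Transcripts of other tissues differed between the libraries. The summed level of 10 limb mesenchyme markers was 225.8 to 495.6 CPM in DKO, highest in DKO 40, and 382.7 to 401.6 CPM in WT, with Pdgfra called lower, and Prrx1 stood out in WT 32 (Prrx1 had 3.51, 23.3 and 12.8 CPM in the DKO libraries, against 29.0, 1.61 and 0.412 CPM in the WT libraries). A single mesenchyme marker reached 316 CPM, so these sums can rest largely on 1 gene, and within WT they stayed close together while Prrx1 did not. The summed level of 10 erythroid markers was 27.2 to 889 CPM in DKO, highest in DKO 41, and 1.79 to 301 CPM in WT, highest in WT 53. Within DKO this sum and the level of Bmf and of Bbc3 had the same order of libraries, DKO 17 lowest and DKO 41 highest; within WT, WT 53 had the lowest Bmf and the highest Bbc3. The 8 endothelial markers summed to 51.9 to 74.9 CPM in DKO and 33.6 to 47.6 CPM in WT, most of it Egfl7, with Cdh5 at 0 in all 6 libraries. The 9 macrophage markers, C1qa and Adgre1 at 0 among them, summed to at most 1.3 CPM in DKO and 1.04 CPM in WT. The 6 neural crest and neural markers, Foxd3 at 0, summed to 5.16 to 14.9 CPM in DKO and 5.36 to 6.4 CPM in WT, with Sox2 called lower. The part of these transcripts in the results above was not tested. Without WT 32 and DKO 41 together, Sesn1 and Plk2 were called and Bmf had a log2 fold change of 1.23 (edgeR adjusted p = 0.149). Without WT 32 and DKO 40, a choice made after seeing the data, 0 of the 37 were called by edgeR among 74 genes called in all. In that fit 9 of the 37 had an unadjusted p under 0.05, and the share over all genes is not given here. The log2 fold changes in that fit were -1.30 for Sesn1, -0.92 for Plk2 and 1.496 for Bmf.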

How the data were processed

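RNA was made into libraries with SMART-Seq v4 and Nextera XT kits, per the labels' protocols; this chemistry marks neither strand nor molecules, so PCR copies count as reads. The authors deposited raw read counts per gene. The submitters' processing notes name DESeq2, StringTie, Cufflinks, HISAT2, fastp and FastQC, and the builds mm10 and GRCm38, without versions or order; how each tool led to the table is not given in the sources used here. The number in each of the 6 column names is not one of the labels' replicate numbers, so columns were taken as replicates of the group they name; p-values measure the spread between these libraries, which may be technical. Each pair of libraries differed by more than sampling noise (chi-square per degree of freedom of 54.6 or more). The 4 samples at embryonic day 10.5 were not analysed here.

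Genes were tested with edgeR 4.0.16 (R 4.3.3; filterByExpr, TMM, glmQLFit robust and legacy=FALSE, quasi-likelihood F test, Benjamini-Hochberg over 19126 genes) and called at an adjusted p under 0.05; SE is |log2 fold change| over the root of F. DESeq2 1.42.0 was an alternative. Levels are CPM scaled by TMM; lengths, positions and overlaps are exon unions of GENCODE M21 (GRCm38), which matched 99.53% of identifiers. On simulated counts for 19126 genes, the fit called 49 of 100 genes changed 2-fold and 98 of 100 changed 4-fold, with 15 false calls among the unchanged genes. False calls thus made up a share of the calls above 0.05. The changed genes were drawn above a floor in level, so genes as low as Hrk, Fas, Bik and Bak1 were not covered. The 37 genes, the lists and the tests were chosen with earlier results of these data known. Named genes are, of the 37, those called, those whose groups did not overlap and the most and least abundant; of the further lists, those called; and a fixed core (Trp53, Mdm2, Bax, Bak1, Bcl2, Bcl2l1, Mcl1, Bcl2l11, Bbc3, Pmaip1, Casp9, Apaf1, Xiap, Cdkn1a, Mdm4 and Birc5); part of that core is not reported here. Other genes given with their values were chosen after their values were seen.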

Additional observations from a re-analysis of the deposited data

How the results depend on the processing

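All 6 called members kept their direction under each alternative tried, and RLE size factors moved no count by over 1.5 times, though Bak1 then missed the threshold (adjusted p = 0.0504) and 5 members were called. With no filter on low counts 412 genes were called (116 higher, 296 lower), with legacy=TRUE 546 (200 higher, 346 lower), by DESeq2 1696 (723 higher, 973 lower), without WT 32 and DKO 41 377 (95 higher, 282 lower), and without WT 32 and DKO 40, chosen after seeing the data, 74 (13 higher, 61 lower), against 863 (325 higher, 538 lower) as reported. Members called were 2 (0 higher, 2 lower) with no filter, with legacy=TRUE and without WT 32 and DKO 41, 9 (3 higher, 6 lower) by DESeq2, and 0 without WT 32 and DKO 40. Genes called on the further lists were 1 higher and 6 lower as reported, 0 and 2 with no filter, 0 and 3 with legacy=TRUE or without WT 32 and DKO 41, 3 and 11 by DESeq2, and 0 without WT 32 and DKO 40.

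With 1 library left out, the count of all genes called ran from 247 to 918 (53 to 332 higher, 194 to 592 lower), of members from 1 to 5 (0 to 2 higher, 1 to 3 lower), and on the further lists from 0 to 2 higher and 0 to 8 lower. The median of the members was -0.12 as reported and ran from -0.20 to -0.03 with 1 library left out. The cause of these shifts was not tested. Genes that were not called changed sign near 0 (log2 fold changes). Without DKO 17, Trp53inp1 was at 0.15; without DKO 40, Pidd1 at 0.0082 and Mdm4 at 0.027; without DKO 41, Bad at -0.0058 and Casp8 at 0.053. Without WT 53, Casp8 was at 0.064 and Apaf1 at -0.026; without WT 56, Trp53 at -0.019, Diablo at -0.015 and Mdm4 at 0.013. With 1 library left out their values ran from -0.02 to 0.17 for Trp53, -0.81 to 0.15 for Trp53inp1, -0.0058 to 0.23 for Bad, -0.17 to 0.064 for Casp8, -0.026 to 0.40 for Apaf1, -0.015 to 0.14 for Diablo and -0.18 to 0.027 for Mdm4. Without WT 32 and DKO 41, Trp53 was at -0.024, Fas at -0.050, Bad at -0.043 and Casp8 at 0.0091; without WT 32 and DKO 40, Diablo at -0.0090. Taking the longest transcript in place of the exon union, the median level of the members in WT was 12.8 CPM per kb, against 10.49. No paired analysis was possible because the table's columns carry none of the labels' replicate numbers. With 3 libraries a group, 49 of 100 simulated 2-fold changes were called, so changes of the size of most uncalled members could be missed.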

Other observations

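Stress-responsive genes were read from 3 further lists. Of 12 genes of the integrated stress response and of the unfolded protein response, 0 were called by edgeR. By edgeR 6 had an unadjusted p under 0.05, against 3448 of all 19126 genes tested. DESeq2 called 1 higher (Atf3) and 2 lower (Xbp1 and Hspa5). Atf3, a stress-induced factor, had 10.6, 5.25 and 3.42 CPM in the DKO libraries, against 1.40, 2.15 and 1.95 CPM in the WT libraries (log2 fold change 1.82, SE 0.489; edgeR adjusted p = 0.0755), without overlap and highest in DKO 17. Hspa5, the main chaperone of the endoplasmic reticulum, had 1943, 1478 and 1240.4 CPM in the DKO libraries, against 2411, 2097 and 2278 CPM in the WT libraries (log2 fold change -0.54, SE 0.155; edgeR adjusted p = 0.0916), lower in each DKO library.

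Of 10 immediate early and heat shock genes tested, Jun fell and 0 rose, and the groups did not overlap for 5, all lower in DKO, against 11.3% of all genes tested that were lower without overlap. Jun had 15.2, 15.3 and 19.5 CPM in the DKO libraries, against 31.7, 24.2 and 35.0 CPM in the WT libraries (log2 fold change -0.87, SE 0.196; edgeR adjusted p = 0.0416) and its call was lost without DKO 17, DKO 40, WT 32 or WT 56 (adjusted p up to 0.183). Fos had 1.63, 0.889 and 2.62 CPM in the DKO libraries, against 5.13, 3.66 and 3.40 CPM in the WT libraries and was not called (log2 fold change -1.22, SE 0.393; edgeR adjusted p = 0.130).

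Of 8 FOXO, E2F, MYC and p63 genes tested, Foxo1, a forkhead factor held in the cytoplasm by AKT, fell 2.04-fold and 0 rose. It had 29.6, 25.0 and 32.8 CPM in the DKO libraries, against 52.7, 61.9 and 64.1 CPM in the WT libraries (log2 fold change -1.03, SE 0.154; edgeR adjusted p = 0.00794), without overlap, and lost its call without WT 56 (adjusted p = 0.0514). Exons of Jun and Foxo1 overlap those of other transcripts by 232 and 674 bases. Foxo3 had 6.16, 9.71 and 14.2 CPM in the DKO libraries, against 7.62, 9.17 and 6.50 CPM in the WT libraries (log2 fold change 0.39, SE 0.318; edgeR adjusted p = 0.593).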
